A study of Populus tremula x Populus alba with 6 samples.

Results

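The genes of chromosome 19 were followed in the shoot apices, which hold the meristem and the youngest leaves, of 6 hybrid poplars. They were taken as all identifiers that begin with Potri.019G and have at least 10 sense-strand counts over the 6 libraries. This gave 779 of the 974 listed identifiers of the chromosome, out of 27688 of 32049 for the whole series. Of the rest, 99 had 0 counts in all libraries and 96 had 1 to 9. Just under the threshold, 12 identifiers had 8 counts and 0 had 9, and just above it 2 had 10 and 2 had 11.

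In poplars and aspens chromosome 19 carries the region that determines sex, and it is also known for clusters of disease-resistance genes. DDM1 is a chromatin remodeller with which plants keep up DNA methylation, chiefly in transposons. All plants here were of the hybrid clone 717-1B4 (Populus tremula x Populus alba), so that sex did not differ between the groups and the label of a sex chromosome could not be checked with these data. The files do not pair identifiers with gene names, and no annotation was used. Members are therefore given by identifier and place, with no name or role, and neighbours are neighbours in identifier order. That order was not checked against the gene order of this hybrid.

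The controls (CTRL) were 3 wild-type plants of this clone, and 3 plants of the same clone carried an RNAi knock-down of DDM1 (RNAi). All 6 were grown on compost at 21 °C with 16 h of light and had 3 weeks of water deficit followed by 1 week of re-watering, so no watered group enters the comparison. The labels do not give the number of transformed lines behind the RNAi plants, and effects of a line cannot be told apart from those of the knock-down. The level of DDM1 was not analysed here, and markers of the apex could not be checked without gene names. The series' design text calls the plants of a group biological replicates.

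Polyadenylated RNA was sequenced with a strand-specific protocol, and the authors deposited raw counts per gene. Sense-strand gene counts numbered between 12399644 and 17165295 in each library, and between 332121 and 476924 of them fell on chromosome 19. With 3 counts as the limit of what a 0 can hide, the floor was between 0.172 and 0.260 CPM (counts relative to the library size scaled by TMM factors). Such floors cover counting error only. Levels in CPM are not divided by transcript length, so they say how many counts a gene took and not how abundant its transcript was against that of another gene.

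Chromosome 19 had the smallest share of detected identifiers of the 19 chromosomes. At least 10 counts were reached by 80.0% of its identifiers, against 86.4% of all identifiers and between 82.6% and 89.8% on the other 18 chromosomes. The identifiers without a chromosome number, which lie on scaffolds, were lower still at 75.1%. The share with 0 counts in all libraries was 10.2% on chromosome 19 and between 5.03% and 8.63% on the other chromosomes. Members that were detected also took fewer counts, with a median of 9.49 CPM (interquartile range 2.18 to 26.5) against 13.2 CPM (3.33 to 34.0) for all genes with at least 10 counts. A mean of at least 1 CPM was reached by 646 members, or 82.9%, against 87.0% of all genes. At least 100 CPM was reached by 48 members, or 6.16%, against 6.93%. How well the reads of this hybrid map to the listed identifiers was not tested, so low detection or few counts need not mean low expression. Fewer cells expressing a gene and less RNA per cell cannot be told apart in RNA from a whole apex, here and in all results that follow.

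Along the identifier order, levels were lowest in the first and the ninth of 10 blocks. In these blocks of 100 listed identifiers, the median level of the members was 2.10 CPM in the first block, from Potri.019G000400 to Potri.019G013000, and 2.53 CPM in the ninth, from Potri.019G108900 to Potri.019G123700. The other blocks had medians from 5.81 to 17.2 CPM, the highest in the fourth. Detection was lowest in the second block at 71% and highest in the seventh at 91%. The longest run of listed identifiers with no member at 1 CPM held 11, from Potri.019G027100 to Potri.019G028700, and 17 to 25 counts per library over all of them. On the other 18 chromosomes the longest such run held between 4 and 42 identifiers.

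**Figure D1:**
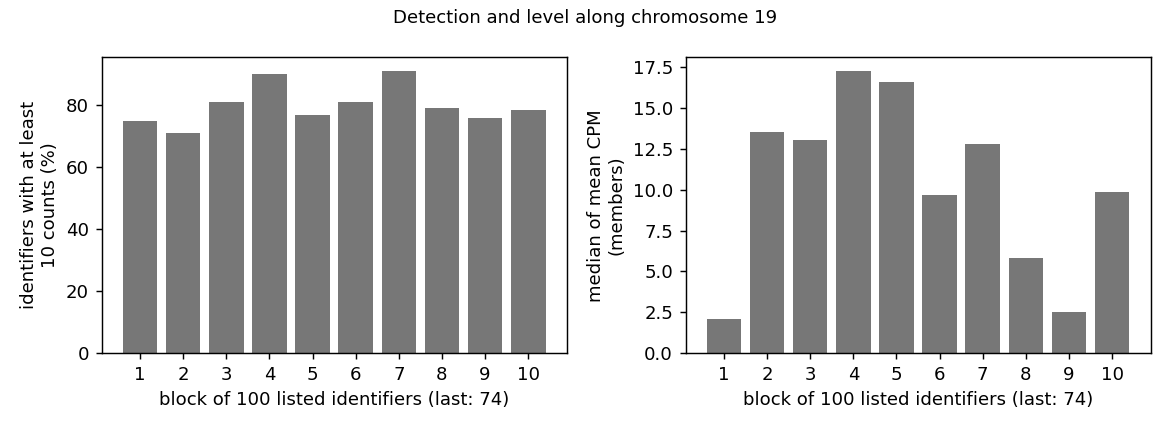
The left panel plots, for blocks of 100 listed identifiers along chromosome 19 (74 in the last), the percent with at least 10 counts over the 6 libraries. The right panel plots the median over the members of their mean CPM; the first and ninth blocks are the lowest at 2.10 and 2.53 CPM.

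A pair of genes took a large part of the counts of the chromosome. Potri.019G124400 had 51327, 40843 and 40382 counts in CTRL 1, 2 and 3 and 46380, 35616 and 49928 in RNAi 1, 2 and 3. Potri.019G050200 had 37819, 28137 and 45566 counts in CTRL against 51245, 30542 and 70642 in RNAi. The CTRL and RNAi libraries overlapped in both genes, and together the pair held between 17.1% and 26.8% of the chromosome's counts. The log2 fold change, given throughout as RNAi minus CTRL, was -0.19 ± 0.29 (SE) for Potri.019G124400, at 3243 ± 1052 CPM in CTRL and 2836 ± 545 CPM in RNAi (SD, n = 3 each, as for all levels with ± below). It was 0.28 ± 0.33 for Potri.019G050200, at 2669 ± 684 and 3242 ± 1130 CPM. The 48 members at or above 100 CPM held between 53.6% and 59.8%.

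The next 4 genes by counts were Potri.019G131900, Potri.019G031200, Potri.019G057000 and Potri.019G024800. Potri.019G031200 had 6070, 6309 and 6331 counts in CTRL against 9269, 7779 and 13874 in RNAi. In CPM its RNAi 2 value lay below that of CTRL 1 (497 against 526), so the groups overlapped. Its level was 449 ± 69.4 CPM in CTRL and 655 ± 151 CPM in RNAi, which gave a log2 fold change of 0.55 ± 0.22 (edgeR quasi-likelihood, adjusted p = 0.80). Potri.019G131900 had 8096, 8223 and 9448 counts in CTRL against 7740, 8627 and 9417 in RNAi. Its 3 RNAi libraries, at 551 ± 10.4 CPM, lay below the CTRL libraries at 615 ± 74.7 CPM, by a log2 fold change of -0.16 ± 0.17 that is smaller than its error. Potri.019G057000 and Potri.019G024800 differed by -0.12 ± 0.18 and 0.19 ± 0.32, with overlapping groups.

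The share of all assigned counts that came from chromosome 19 was 2.68%, 2.60% and 2.64% in CTRL and 2.67%, 2.43% and 2.78% in RNAi. RNAi 2 was the lowest and RNAi 3 the highest library, and the CTRL values lay between them. The means of 2.64 ± 0.040% and 2.63 ± 0.18% differed by -0.0138 percentage points (exact two-sided permutation p = 0.9, where 3 against 3 libraries cannot go below 0.1). The sign of this difference turned without CTRL 1 (0.00586) and without RNAi 2 (0.0851). Without Potri.019G124400 and Potri.019G050200, a choice made after seeing their counts, the share was between 1.96% and 2.09% in CTRL and between 1.98% and 2.08% in RNAi.

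Between RNAi and CTRL apices 0 of the 779 members passed edgeR's quasi-likelihood test at an adjusted p under 0.05, where 1 of all 27688 genes did (0.00361%). On the chromosome the lowest adjusted p was 0.71, for Potri.019G009300. At an unadjusted p under 0.05, 29 members were higher in RNAi (background over all genes 3.1%) and 32 lower (background 2.64%). The 61 together made 7.83% of the members, against 5.74% of all genes. With 1 library left out, between 40 (without CTRL 3) and 74 members (without RNAi 1) had such a p, of which 31 and 43 were among the 61. The share over all genes is not given for these fits, so they show only how the count moves. The CTRL and RNAi libraries did not overlap in 52 members with RNAi higher (background 5.89%) and 50 with RNAi lower (background 6.04%). Together these made 13.1% of the members against 11.9% of all genes. The median log2 fold change was 0.013 over the members and -0.0016 over all genes.

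Other tests on the same counts made a few calls. edgeR's likelihood ratio test called 9 members, where it called 0.289% of all genes. Of the 9, 7 were lower and lay in the lower stretches described below, and Potri.019G022600 and Potri.019G132200 were higher. Potri.019G022600, picked out after seeing its values, had 393, 341 and 493 counts in CTRL against 758, 709 and 871 in RNAi. Its RNAi libraries, at 50.1 ± 4.85 CPM, all lay above the CTRL libraries at 29.2 ± 5.42 CPM, and its log2 fold change was 0.78 ± 0.16 (edgeR quasi-likelihood, adjusted p = 0.76). DESeq2 called Potri.019G005600 and Potri.019G008600, both lower, where it called 0.14% of all genes. limma-voom called 0. The quasi-likelihood test called Potri.019G008000, as lower, when RNAi 1 was left out, where it called 0.0327% of all genes.

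Large fitted differences were mostly downwards and lay close together. A fitted level at least 4-fold lower in RNAi was found in 16 members (2.05%, background 0.343%), and a level at least 4-fold higher in 1 (background 0.202%), Potri.019G065100 with 17 counts in all. The second number was 4 without CTRL 1 or CTRL 2 and 2 without CTRL 3 or RNAi 1. Among the 646 members with a mean of at least 1 CPM, 9 were lower by 4-fold (1.39%, background 0.137%) and 0 higher (background 0.0498%). Of the other chromosomes, chromosome 1 had the most such lower genes, 7, and the highest share, 0.254%, and the scaffold group had 2, or 0.340%. Of the 16 lower members, 14 lay in 2 stretches of the identifier order, named here the first and second lower stretch, which were picked out after seeing these values and are described without a test. Outside both stretches, 2 of 751 members were lower by 4-fold (0.266%). At an unadjusted p under 0.05 in edgeR's quasi-likelihood test, 19 of the 751 were lower (2.53%, background 2.64%). Of the same 751, 28 were higher (3.73%, background 3.1%). The stretches were picked for low values, which by itself takes lower members out of these counts.

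**Figure D2:**
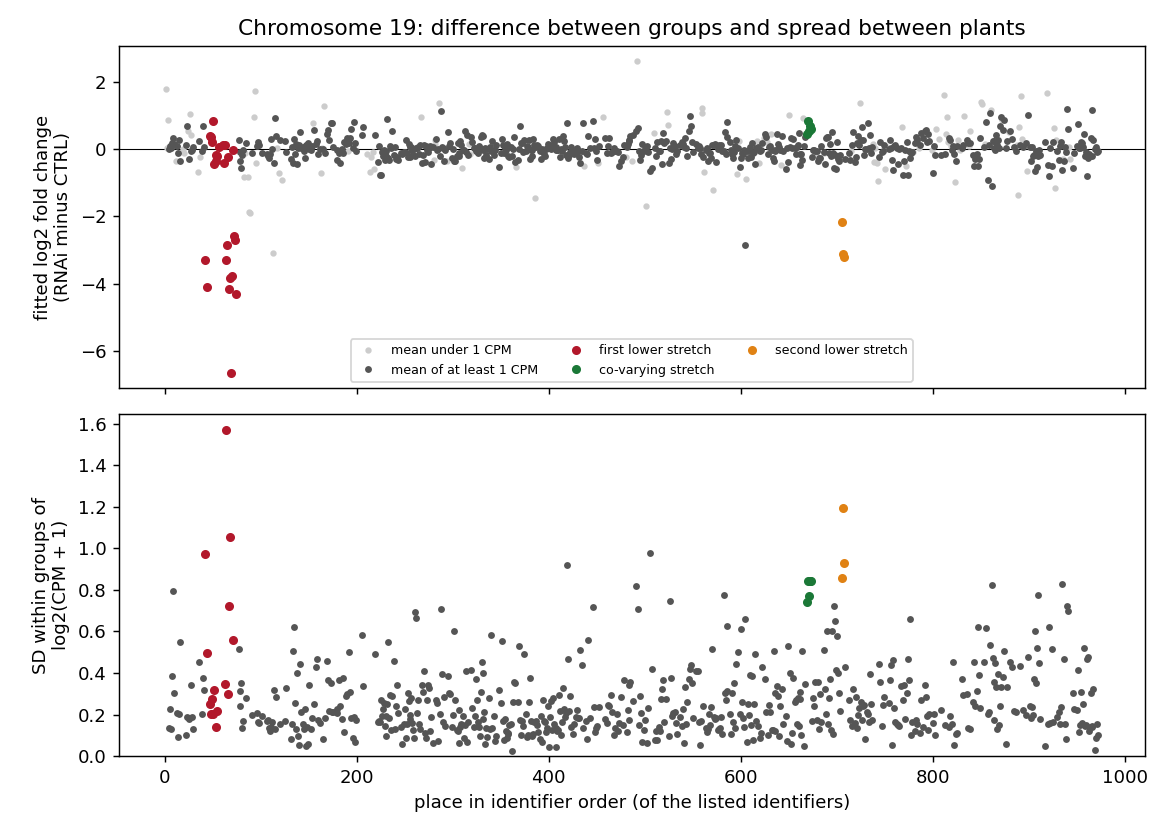
The upper panel plots the fitted log2 fold change (RNAi minus CTRL) of each member against its place among the listed identifiers, and the lower panel the spread between plants, the SD within groups of log2(CPM + 1), for members with a mean of at least 1 CPM. The coloured points are the first lower stretch at places 42 to 74, the co-varying stretch at places 669 to 673 and the second lower stretch at places 705 to 707; 14 of the 16 members lower by 4-fold lie in the lower stretches.

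The first lower stretch ran from Potri.019G005400 to Potri.019G009300, places 42 to 74. Of its 33 listed identifiers 25 were members, and 11 of them were lower in RNAi by a fitted 4-fold or more. These 11 had log2 fold changes from -6.64 to -2.58 and, in the edgeR quasi-likelihood fit, adjusted p from 0.71 to 0.80. The gene with the most counts among them, Potri.019G008000, had 442, 267 and 889 counts in CTRL against 162, 0 and 2 in RNAi. The step in RNAi lay between RNAi 1 and the other RNAi plants, and CTRL 2 was also well below CTRL 3. Its level was 37.1 ± 18.3 CPM in CTRL and 3.96 ± 6.75 CPM in RNAi, which gave a log2 fold change of -3.29 ± 1.19.

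Other lower genes of the stretch showed the same order of libraries. Of these, Potri.019G005400 and Potri.019G005600 lie at places 42 and 44, apart from Potri.019G008000 at place 64. Potri.019G008500 had 154, 84 and 370 counts in CTRL against 43, 0 and 0 in RNAi, and Potri.019G005400 had 97, 50 and 228 in CTRL against 37, 0 and 2 in RNAi. Potri.019G008300 had 36, 19 and 121 counts in CTRL against 9, 0 and 1 in RNAi, and Potri.019G005600 had 30, 10 and 45 in CTRL against 5, 0 and 0 in RNAi. In each of these genes CTRL 3 was the highest library and all RNAi libraries lay below all CTRL libraries. CTRL 3 was the highest library in 10 of the 11 genes, CTRL 2 the lowest of the CTRL libraries in 11, and RNAi 1 the highest of the RNAi libraries in 11, counting a tie at 0 in Potri.019G008600. The remaining 6 had a mean under 1 CPM; of them Potri.019G008100 had 13, 14 and 30 counts in CTRL against 8, 0 and 0 in RNAi, and Potri.019G009300 had 6, 7 and 12 against 1, 0 and 0. The groups did not overlap in 9 of the 11 (background with RNAi lower 6.04%), which the choice by a large difference favours.

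Potri.019G008600 was at 0 in all 3 RNAi libraries and had 17, 5 and 12 counts in CTRL. Against a floor of 3 counts over the RNAi group its level was at least 12.5-fold lower in RNAi, and the fitted value of -6.64 is no bound, since it moves with the prior count. Of all genes with at least 10 counts, 2 had counts in every CTRL library and none in RNAi, and 5 the reverse, with 0 of these 5 on chromosome 19.

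The other 14 members of the first lower stretch, which lie among and between the 11, had a median log2 fold change of 0.00 and a range from -0.45 to 0.84. The groups did not overlap in 2 of them, Potri.019G005900 and Potri.019G006200, both with RNAi higher. This holds for 11.9% of all genes in either direction, so nothing is read from these 2. Potri.019G006700 took most of their counts, with 1009, 1045 and 1485 in CTRL against 1068, 1101 and 1313 in RNAi. It differed by -0.17 ± 0.14, with overlapping groups. Potri.019G008200, placed between 2 of the lower genes, had 18, 38 and 42 counts in CTRL against 17, 34 and 41 in RNAi. Summed over the 11 lower genes, the level was 69.7, 31.6 and 107 CPM in CTRL and 19.6, 0 and 0.287 CPM in RNAi. Summed over the 14 others it was 106, 98.4 and 114 CPM in CTRL and 96.7, 98.0 and 102 CPM in RNAi. The 10 flanking members, 5 on either side, had a median log2 fold change of -0.00.

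**Figure D3:**
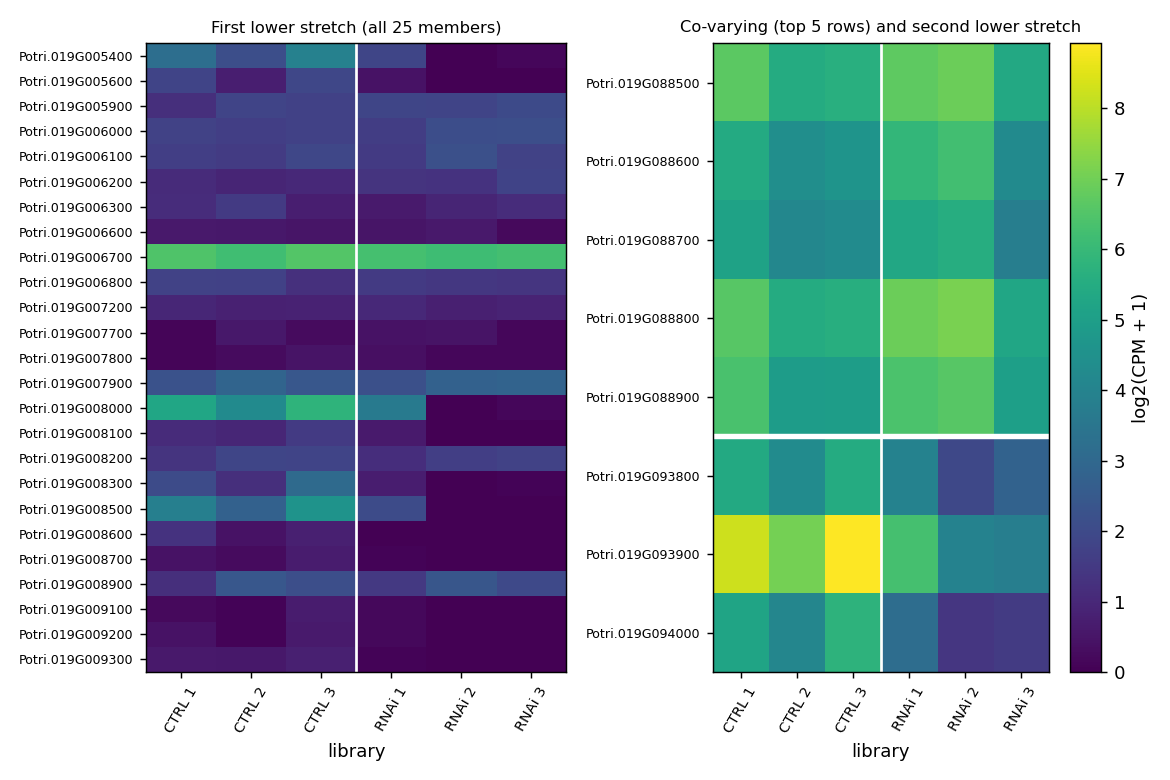
Each row is a member and each column a library, coloured by log2(CPM + 1), with a white line between CTRL and RNAi. The left panel holds all 25 members of the first lower stretch in identifier order, with the lower genes standing among other members; the right panel holds the co-varying stretch in its top 5 rows and the second lower stretch in its bottom 3.

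The second lower stretch held 3 adjacent identifiers, Potri.019G093800, Potri.019G093900 and Potri.019G094000, at places 705 to 707. Potri.019G093900, the gene with the most counts of the 16, had 3443, 1942 and 7852 counts in CTRL against 1077, 227 and 226 in RNAi. Its level was 305 ± 175 CPM in CTRL and 35.2 ± 37.2 CPM in RNAi, which gave a log2 fold change of -3.12 ± 0.76 (edgeR quasi-likelihood, adjusted p = 0.80). Potri.019G094000 had 413, 234 and 872 counts in CTRL against 113, 26 and 33 in RNAi, with a log2 fold change of -3.20 ± 0.65 (adjusted p = 0.74). Potri.019G093800 had 478, 275 and 704 counts in CTRL against 202, 44 and 103 in RNAi, with a log2 fold change of -2.16 ± 0.54. In all 3 genes the groups did not overlap (background with RNAi lower 6.04%), which the choice by a large difference favours. RNAi 1 was the highest RNAi library in these genes and CTRL 3 the highest of all. The 10 flanking members had a median log2 fold change of -0.24.

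Although far apart in the identifier order, the lower stretches had similar summed levels relative to CTRL 3 in CTRL 1, CTRL 2 and RNAi 1, but not in RNAi 2 and RNAi 3. The summed level of the first was 65.2% of CTRL 3 in CTRL 1, 29.5% in CTRL 2 and 18.3% in RNAi 1, and that of the second was 64.6%, 28.9% and 17.4%. In RNAi 2 and RNAi 3 the first was at 0% and 0.268% and the second at 3.27% and 3.58%. Each sum is carried mostly by 1 gene, Potri.019G008000 or Potri.019G093900, and single genes varied more. Among the 5 lower genes of the first stretch with a mean of at least 1 CPM, the level lay between 41.8% and 93.7% of CTRL 3 in CTRL 1, 17.5% and 33.4% in CTRL 2, and 8.76% and 21.5% in RNAi 1. Among the 3 genes of the second stretch it lay between 61.6% and 95.4%, 27.5% and 43.4%, and 15.3% and 33.8%. The same was computed for the 24 genes outside chromosome 19 with a mean of at least 1 CPM and a fitted level lower by 4-fold. Their sum was at 88.2% in CTRL 1, 47.7% in CTRL 2, 22.1% in RNAi 1, 2.72% in RNAi 2 and 3.54% in RNAi 3. RNAi 1 was the highest RNAi library in 18 of these 24 genes and in 9 of the 9 such members. CTRL 2 was the lowest CTRL library in 18 of the 24 and in 9 of the 9. CTRL 3 was the highest of all libraries in 12 of the 24 and in 8 of the 9. Choice by a large fitted difference favours the order of the groups in these sums. How far it also shaped the order of libraries within a group was not tested. In both stretches CTRL 2 was closer to RNAi 1 than to CTRL 3. The median log2 fold change was -3.76 over the 11 genes of the first stretch, or -3.65 with Potri.019G008600 at its bound, and -3.12 over the second. Without RNAi 1, 8 of the 11 had 0 counts in the RNAi libraries that were left, so that no median is given, and the median of the second stretch was -4.30. Without CTRL 3 only 8 of the 11 had at least 10 counts, and their median went from -3.97 to -3.27, while that of the second stretch was -2.62.

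**Figure D4:**
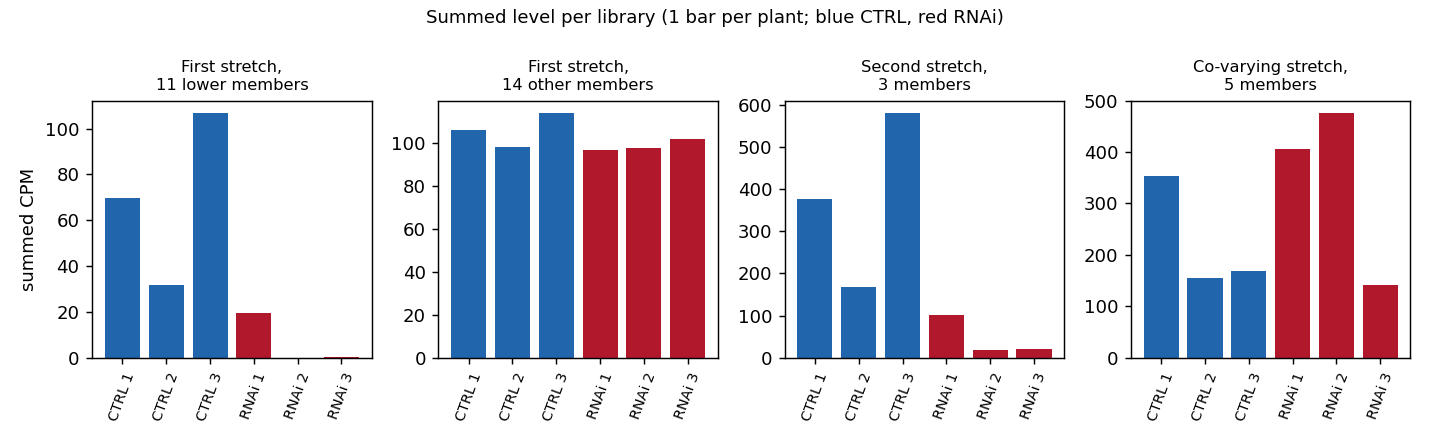
Bars give the summed CPM per library, 1 bar per plant with CTRL in blue and RNAi in red, each panel with its own axis from 0. The 11 lower members of the first stretch and the 3 members of the second have CTRL 3 highest and RNAi 2 and RNAi 3 near 0, the 14 other members of the first stretch lie between 96.7 and 114 CPM, and the co-varying stretch is high in CTRL 1, RNAi 1 and RNAi 2.

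The remaining members lower by 4-fold took few counts. Potri.019G080600 had 36, 5 and 46 counts in CTRL against 7, 4 and 2 in RNAi, with RNAi 1 and CTRL 2 overlapping in CPM, and a log2 fold change of -2.85 ± 0.83. Potri.019G014800 had 8, 2 and 8 counts in CTRL against 1, 0 and 1 in RNAi, a mean of 0.242 CPM over the 6 libraries.

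In windows of 5 neighbouring members with a mean of at least 1 CPM, the lowest median log2 fold change on chromosome 19 was -3.29, for Potri.019G007900 to Potri.019G008500. The lowest window of each other chromosome and of the scaffold group lay between -2.36, on chromosome 1, and -0.377. This window holds 3 of the lower genes beside Potri.019G007900 (0.11 ± 0.30) and Potri.019G008200 (-0.23 ± 0.35), so its median is that of a lower gene. Windows of 10 members gave -0.474, for Potri.019G093000 to Potri.019G094000. The highest window on chromosome 19 had a median of 0.67, within the range of 0.413 to 0.954 over the other groups.

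**Figure D5:**
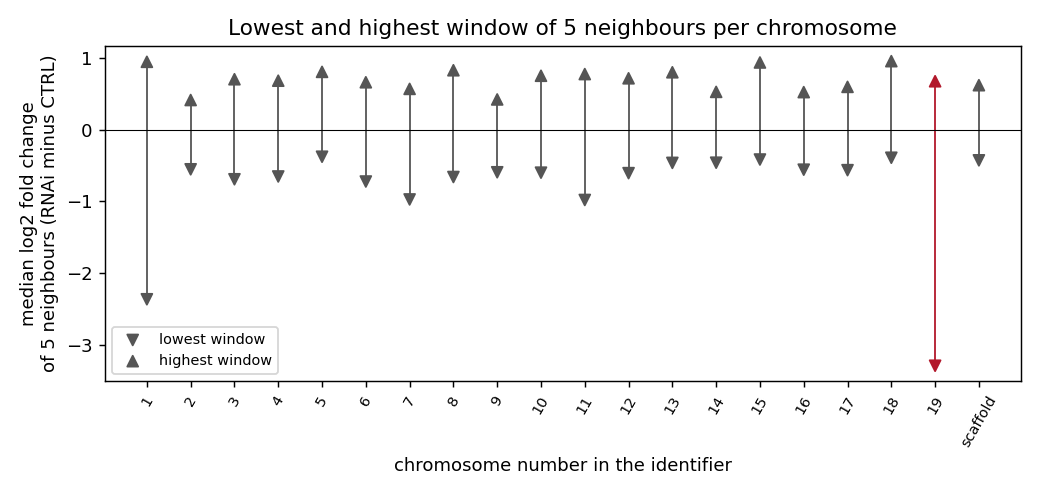
Downward and upward triangles mark the lowest and the highest median log2 fold change (RNAi minus CTRL) over windows of 5 neighbouring genes with a mean of at least 1 CPM on each chromosome and on the scaffold group, with chromosome 19 in red. Its lowest window, at -3.29, lies under those of the other groups, the next being -2.36 on chromosome 1, and its highest, at 0.67, lies among theirs.

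The highest window ran from Potri.019G119500 to Potri.019G120000. Within it Potri.019G119900 had 67, 93 and 80 counts in CTRL against 80, 195 and 122 in RNAi, and Potri.019G120000 had 34, 60 and 57 in CTRL against 51, 168 and 84 in RNAi. RNAi 2 was the highest library in both, and RNAi 1 lay within the range of CTRL. Their log2 fold changes were 0.57 ± 0.30 and 0.86 ± 0.40, while Potri.019G119500 stood at 0.04 ± 0.14. Without CTRL 1 the highest window was another one, Potri.019G088500 to Potri.019G088900, with a median of 1.12, and without RNAi 1 it was Potri.019G119600 to Potri.019G120000 with 1.13.

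Runs of one sign were short. Of the runs of neighbouring members at 1 CPM or more with the same sign of the log2 fold change, 120 held 1 gene and 61 held 2. The longest held 13, from Potri.019G119200 to Potri.019G121400, all higher in RNAi, with a median of 0.31 and 0 members whose groups did not overlap. The longest run of the other groups held between 8 and 15. On the log2(CPM + 1) scale and set against CTRL, this run had a median of 0.03 in RNAi 1, 0.61 in RNAi 2 and 0.26 in RNAi 3. The next longest run held 11 members, from Potri.019G105900 to Potri.019G108200, also higher in RNAi. Its median was 0.32, with 0.33, 0.11 and 0.38 in RNAi 1, 2 and 3 and from -0.15 to 0.19 in CTRL, and the groups did not overlap in 5 of its members, where RNAi is so higher in 5.85% of all genes at 1 CPM or more. The run was picked for its common sign, so nothing is read from this count. A run of 9 lower members, from Potri.019G093400 to Potri.019G095400, held the second lower stretch.

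The largest fitted increases among members with a mean of at least 1 CPM were about 2-fold, and none passed edgeR's quasi-likelihood test (adjusted p = 0.80 for each of the 8 largest). Potri.019G132200 had 22, 21 and 34 counts in CTRL against 56, 68 and 65 in RNAi. All RNAi libraries, at 4.05 ± 0.31 CPM, lay above all CTRL libraries, at 1.81 ± 0.34 CPM. Its log2 fold change of 1.15 ± 0.25 stayed between 1.01 and 1.28 over 15 other settings, and edgeR's likelihood ratio test called it (adjusted p = 0.0344, with adjusted p up to 0.99985 over the other settings).

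In several of the other increases RNAi 2 was the highest library, and the fitted value was smaller without it. Potri.019G037300 had 431, 598 and 498 counts in CTRL against 714, 2309 and 702 in RNAi. RNAi 2 stood well above the other RNAi plants, and RNAi 3 lay within the range of CTRL in CPM. The fitted log2 value of 1.14 ± 0.44 came down to 0.34 without RNAi 2. Potri.019G129100 had 15, 26 and 11 counts in CTRL against 11, 89 and 35 in RNAi, with a log2 fold change of 1.19 ± 0.67, and 0.20 without RNAi 2. Potri.019G118000 had 39, 55 and 51 counts in CTRL against 60, 196 and 81 in RNAi, with a log2 fold change of 1.07 ± 0.42, and 0.39 without RNAi 2. All its RNAi libraries lay above all its CTRL libraries. Potri.019G123500 had 60, 141 and 117 counts in CTRL against 143, 349 and 209 in RNAi. Its groups did not overlap either, and 1.01 ± 0.33 came down to 0.60 without RNAi 2. The last 3 of the 8, Potri.019G073500, Potri.019G119700 and Potri.019G015000, had means of 1.11, 1.22 and 1.06 CPM and log2 fold changes of 0.98, 0.94 and 0.91.

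The spread between plants, measured as the SD within groups of log2(CPM + 1) pooled over both groups, had a median of 0.206 over the members and 0.208 over all genes. Its upper end was wider on chromosome 19 than over all genes. Among members with a mean of at least 1 CPM its 90th percentile was 0.501, against 0.446 for all such genes. The median level of these members was 13.9 CPM, against 17.1 CPM for all such genes. The spread was over 0.5 in 66 of these 646 members (10.2%, against 6.77% of all such genes). They were most frequent in the first block of 100 identifiers (17.4%), the seventh (18.8%) and the tenth (17.6%). The 8 in the first block include Potri.019G005400, Potri.019G008000, Potri.019G008300 and Potri.019G008500 of the first lower stretch. The 15 in the seventh include all 5 genes of the co-varying stretch described below. RNAi 2 was the highest library in 20 of the 66 and the lowest in 18. The groups did not overlap in 8 of the 66, where this holds for 11.8% of all genes at 1 CPM or more. These 8 include genes of both lower stretches. The largest spreads were those of Potri.019G008000 (1.57), Potri.019G093900 (1.19) and Potri.019G008500 (1.06) in the lower stretches. Outside them Potri.019G067500 was the widest at 0.977. It had 148, 1019 and 535 counts in CTRL against 270, 221 and 680 in RNAi, with CTRL 1 the lowest and CTRL 2 the highest library.

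Another stretch, the co-varying one, was wide between plants without separating the groups. In the 5 adjacent identifiers from Potri.019G088500 to Potri.019G088900, at places 669 to 673, CTRL 1, RNAi 1 and RNAi 2 were high and the other plants low. Potri.019G088800 had 1101, 646 and 769 counts in CTRL against 1667, 2184 and 651 in RNAi, and Potri.019G088500 had 1160, 647 and 784 in CTRL against 1415, 1874 and 705 in RNAi. Summed over the 5 genes the level was 353, 154 and 168 CPM in CTRL against 405, 476 and 141 CPM in RNAi. The groups, at 225 ± 111 and 341 ± 177 CPM, overlapped, and the log2 fold changes of the 5 genes lay between 0.45 and 0.82 (edgeR quasi-likelihood, adjusted p from 0.80 to 0.85). Their spreads lay between 0.743 and 0.844, against a median of 0.261 in the 10 flanking members. The deviations of the 5 genes from their group means correlated by 0.955 to 0.9988 over the 6 libraries in all 10 pairs, which is a description of libraries that the genes share. Potri.019G088500 to Potri.019G088900 was the longest chain of its kind on the chromosome. Of 645 pairs of neighbouring members, 39 correlated by more than 0.9 in this way (6.05%, against 4.07% over all genes and 2.99% to 5.27% on the other groups). At 20 places apart the share was 2.40%, against 2.56% over all genes. The 39 pairs formed 34 chains, of which 31 were single pairs. Similar neighbours are a limit here, as the counts do not show how reads that match near-identical copies were treated. The part of this in the correlations was not tested.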

How the data were processed

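Polyadenylated RNA from 3 CTRL and 3 RNAi apices was sequenced as paired-end stranded libraries, per the labels' protocols. The authors deposited raw read counts per gene, in unstranded, forward and reverse columns per the file headers. STAR is named in the submitters' processing notes, while its version, a genome build and an annotation were not given in the sources used here. Reverse-column counts were used as sense counts. Summary lines without a gene, 11.7% to 13.1% of the reads of a library, stayed out of library sizes and tests. No libraries were duplicates (chi-square per degree of freedom from 7.96 to 39.1). The lowest value was between CTRL 1 and RNAi 1 and the next lowest, 14.05, between CTRL 2 and RNAi 3, so both pairs lie across the groups. The cause was not tested.

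All 27688 genes with at least 10 counts over the 6 libraries were fitted with edgeR 4.0.16 (R 4.3.3, robust quasi-likelihood F test, two-sided, TMM factors from 0.932 to 1.07), with Benjamini-Hochberg adjustment over all of them and calls under 0.05. The biological coefficient of variation was 0.204. SEs come from this fit. Alternatives were the likelihood ratio test, DESeq2 1.42.0, limma-voom 3.58.1, other scalings, filters, columns and windows, a replicate block and leaving out each library.

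Named genes are, among members with a mean of at least 1 CPM, the 6 with the most counts, the 8 largest increases and decreases, the 6 widest spreads, and the members of the strongest windows. Members at 0 in 1 group and with counts in every library of the other were also named, without this limit on the mean. Other identifiers, the stretches, the runs, the spread limit of 0.5 and the correlation limit of 0.9 were chosen after seeing values. The members and lists were chosen with earlier results of these data known. Lists by gene product were not run, for lack of names.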

Additional observations from a re-analysis of the deposited data

How the results depend on the processing

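The count of 0 called members became 9 by edgeR's likelihood ratio test, 2 by DESeq2 and between 0 and 1 with 1 library left out, the 1 without RNAi 1. It stayed at 0 by limma-voom, with RLE factors or library size only, with both other filters, with the unstranded column and with the replicate block. Members whose groups did not overlap numbered 143 to 195 with 1 library left out, when fewer libraries have to part. The share over all genes is not given for these settings, so nothing is read from this range. The 16 members lower by 4-fold became 9 with filterByExpr (678 members tested) and 8 with at least 1 CPM in 3 libraries (651 tested), and 13 to 19 with 1 library left out; of the 13 without CTRL 3, 12 were among the 16. The 1 member higher by 4-fold became 0 with each of these filters, 2 with the unstranded column and 1 to 4 with 1 library left out. The median log2 fold change was -0.0207 with library size only (-0.0365 over all genes) and -0.00675 to 0.0197 with 1 library left out. The median spread then lay between 0.190 and 0.213, and the difference in the chromosome's share of counts between -0.0902 and 0.0851 percentage points, turning sign without CTRL 1 (0.00586) and RNAi 2 (0.0851). The lowest window lay between -6.70 (without RNAi 1, the fitted value of Potri.019G008300 with 1 RNAi count left) and -2.68 and the highest between 0.674 and 1.13 with 1 library left out, and windows of 10 members gave -0.474 as the lowest. The cause of these changes was not tested where no construction is named. For 33 named genes, 473 of 490 alternative values kept direction and side of the threshold and 10 passed it. The other 7 turned sign, in 6 genes, whose values with 1 library left out ranged from -0.353 to 0.105 for Potri.019G124400 and -0.221 to 0.0187 for Potri.019G057000 (highest without CTRL 1), -0.139 (without RNAi 3) to 0.485 for Potri.019G024800, -1.20 to 0.0772 (without CTRL 2) for Potri.019G067500, -0.0909 (without RNAi 1) to 0.112 for Potri.019G119500, and -0.0358 (without RNAi 3; -0.0337 without CTRL 1) to 0.352 for Potri.019G007900. Deviations from group means correlated by 0.27, -0.02 and -0.02 between libraries of the same number, and by 0.46 between CTRL 2 and RNAi 3. The labels do not state that the numbers pair the plants. These correlations cannot decide it, since paired plants without a shared effect would not correlate. With the replicate block 0 members were called and 16 were lower by 4-fold. Depth limits genes near 0.172 to 0.260 CPM.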

Other observations

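Nearly all counts on the strand opposite to chromosome 19 genes came from 1 identifier, Potri.019G121800, named after its values were seen. It had 26757, 21627 and 22886 opposite-strand counts in CTRL against 30805, 19259 and 31085 in RNAi, and 0 to 11 sense counts per library, which left it near the bottom of the sense table. It held between 87.2% and 93.2% of the opposite-strand counts of the chromosome, and the groups overlapped. The opposite strand held 5.40% to 8.02% of the chromosome's stranded counts, against 1.59% to 1.82% over all genes, and 0.514% to 0.727% without this identifier. Potri.019G024300 was of the same kind, with 443, 497 and 465 opposite-strand counts in CTRL, 577, 560 and 675 in RNAi, and 0 or 1 sense counts. Of 151 chromosome 19 genes with enough opposite-strand counts, edgeR's quasi-likelihood test called 0 (lowest adjusted p = 0.79), where it called 3 of all 6999 such genes (0.0429%). At an unadjusted p under 0.05 there were 9 of the 151, against 350 of all 6999. Whether the listed strand of these identifiers is right was not tested, since no annotation was used.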
